A study of Mus musculus with 20 samples.

Results

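The enzymes described here are the phase II conjugation enzymes of mouse liver: UDP-glucuronosyltransferases (UGT), glutathione S-transferases with their microsomal relatives (GST and MGST), and sulfotransferases (SULT). Members were taken from the gene names alone, as Ugt1 to Ugt3 genes, Gsta, Gstm, Gstp, Gstt, Gstk, Gsto and Gstz genes, Mgst genes and Sult genes, and Sult1e1 was left out. This gave 65 of 48440 genes, of which 21 were UGT, 24 GST or MGST and 20 SULT. Of these, 51 passed the filter on low counts (14 UGT, 22 GST or MGST, 15 SULT), among 16071 genes that passed in all.

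Liver RNA of 20 wild-type female C57BL/6 mice, 8 weeks old at the start, was sequenced after 5 weeks of treatment, and each group held 5 mice. Mice of the Isotype + Vehicle group received an IgG2a isotype control antibody and plain vehicle, and those of the Isotype + CORT group the same antibody and corticosterone (CORT), the main glucocorticoid of rodents. Mice of the αACBP + Vehicle and αACBP + CORT groups received a monoclonal antibody against acyl-CoA-binding protein (ACBP, also called DBI) in place of the isotype control. The design asks how CORT changes liver transcripts and whether neutralizing ACBP alters that change. All mice received an antibody, so that no group was free of injection, and replicates were separate mice of 1 strain and sex.

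Phase II enzymes attach a polar group to drugs, steroids, bile acids, bilirubin and lipid breakdown products, which can then leave the cell through efflux pumps. UGT enzymes sit in the endoplasmic reticulum and transfer glucuronic acid from UDP-glucuronate, GST enzymes add glutathione to electrophiles, and SULT enzymes transfer sulfate from the cofactor PAPS. In rodents many of these genes are arrays of close relatives that lie side by side, are strongest in hepatocytes, and answer to nuclear receptors such as CAR and PXR, to the oxidative stress factor NRF2, and to steroid and growth hormone signals.

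Of the 65 members, 43 lay in 6 arrays of at least 3 members (GRCm39, GENCODE M39). On chromosome 5, 12 members shared 679 kb from Ugt2b34 to Sult1d1. The Sult2a array on chromosome 7 held 8 members in 870 kb, the Gstm array on chromosome 3 held 7 in 149 kb, and the Ugt1a array on chromosome 1 held 9 in 165 kb. Printed below is a start region of each of the 5 members that passed the test with CORT under isotype. They were searched for AGAACA, a half-site of the glucocorticoid receptor, in these start regions only. Receptor sites elsewhere or of other forms were not searched. Each runs from 250 bases before to 50 bases after the RefSeq start on its own strand (GRCm38.p6), and capitals mark the word GTTAATNAT, a form of the site of the hepatocyte factor HNF1, searched on both strands.
Sult1d1 (chr5:87568957-87569256, minus strand): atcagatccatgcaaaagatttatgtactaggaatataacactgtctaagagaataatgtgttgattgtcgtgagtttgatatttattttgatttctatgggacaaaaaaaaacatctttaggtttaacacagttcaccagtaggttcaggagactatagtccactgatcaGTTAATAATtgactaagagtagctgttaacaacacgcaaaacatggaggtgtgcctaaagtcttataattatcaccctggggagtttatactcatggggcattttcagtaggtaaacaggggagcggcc
Sult2a3 (chr7:14122999-14123298, minus strand): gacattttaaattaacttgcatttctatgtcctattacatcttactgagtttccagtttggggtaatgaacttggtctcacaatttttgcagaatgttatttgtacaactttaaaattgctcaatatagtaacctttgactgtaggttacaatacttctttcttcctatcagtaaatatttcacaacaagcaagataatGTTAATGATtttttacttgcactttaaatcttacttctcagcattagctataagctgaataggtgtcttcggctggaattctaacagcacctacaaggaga
Ugt2b5 (chr5:87140291-87140590, minus strand): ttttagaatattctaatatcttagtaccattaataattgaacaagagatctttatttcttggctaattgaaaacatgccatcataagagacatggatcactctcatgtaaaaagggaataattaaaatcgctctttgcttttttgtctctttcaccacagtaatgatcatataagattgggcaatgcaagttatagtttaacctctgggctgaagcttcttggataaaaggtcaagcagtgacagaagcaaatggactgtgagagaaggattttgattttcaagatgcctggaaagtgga
Ugt2b35 (chr5:87000610-87000909, plus strand): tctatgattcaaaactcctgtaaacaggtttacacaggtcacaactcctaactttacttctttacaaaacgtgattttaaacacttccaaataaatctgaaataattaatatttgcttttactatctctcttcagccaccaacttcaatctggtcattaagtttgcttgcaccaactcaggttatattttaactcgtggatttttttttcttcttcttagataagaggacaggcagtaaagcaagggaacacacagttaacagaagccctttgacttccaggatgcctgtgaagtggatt
Gstm7 (chr3:107931768-107932067, minus strand): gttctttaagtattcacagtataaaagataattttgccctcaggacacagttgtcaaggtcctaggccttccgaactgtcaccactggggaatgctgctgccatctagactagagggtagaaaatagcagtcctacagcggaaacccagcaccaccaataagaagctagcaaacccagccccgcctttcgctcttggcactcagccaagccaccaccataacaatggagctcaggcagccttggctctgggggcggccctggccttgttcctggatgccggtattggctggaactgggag

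The glucocorticoid receptor half-site AGAACA was in none of these 5 windows on either strand. It was in 18 of the 69 windows of members (26.1%), against 6233 of all 32851 windows (19%). Gstm7 has a 2nd window (chr3:107931565-107931864), not printed, which held 0 of these half-sites and 0 HNF1 words. The HNF1 word was found in 8 of the 69 windows of members (11.6%) and in 0.801% of all windows. The 8 genes were Sult1d1, Sult2a3, Sult2a4, Sult2a5, Sult2a6, Ugt1a1, Ugt1a9 and Ugt1a10, of which 4 lie in the Sult2a array and 3 in the Ugt1a array, so that they are no independent cases. It stood 79 bases before the start of Sult1d1 and 51 before that of Sult2a3. Other words searched on both strands were TATAAA (23.2% of the members' windows and 13.6% of all), the antioxidant response element core TGACNNNGC (5.8% and 12.4%), the STAT5 word TTCNNNGAA (8.7% and 8.3%), CACGTG (in 0 of the members' windows and 7.15% of all), TTATGNAA (5.8% and 3.38%) and the HNF4 word CAAAGTCCA (1.45% and 0.475%). Windows of this table matched 57 of the 65 member symbols. A match or its absence describes these letters only.

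Each liver had from 14934926 to 20299999 counts on genes, and 3 counts, taken as the lowest detectable level, corresponded to between 0.145 and 0.205 CPM (counts scaled to a common library size with the trimmed mean of M values, TMM). Intervals and floors of this kind cover counting error only. In αACBP + Vehicle the 5th liver stood apart: its scaling factor was 1.29 against 0.880 to 1.08 in the other livers, its median correlation with its group was 0.873 against at least 0.892, and 14613 genes were detected in it against 15108 to 19559. Calls, medians, sums and counts that rest on that group are therefore also given without it. The 10 hepatocyte markers checked, among them Alb, Apoa1 and Cps1, were detected in every group, in keeping with the label of liver.

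The most abundant members per length of annotated exon were Mgst1, a microsomal transferase that also reduces lipid peroxides, at 1102 CPM per kb (mean of 20 livers), and Gstm1, the leading mu-class transferase, at 733. By mean CPM alone they also led, at 2241 and 1844 CPM. The length covers all annotated exons of a gene together, so members with long annotation rank lower per length. Gstz1, with 10718 exon bases, was at 805 CPM but 75.1 CPM per kb. Among the sulfotransferases Sult2a1, which sulfates steroids and bile acids, was at 232 CPM per kb and Sult1a1, which sulfates phenols, at 206. Among the glucuronosyltransferases Ugt2b5 was at 183 CPM per kb and Ugt2b36 at 159, both of the group that handles steroids. Ugt1a1, the bilirubin-conjugating enzyme, was at 6.22 CPM per kb. This value is uncertain, since it is taken over all exon bases and 71.7% of them are shared with other Ugt1a genes. All members together took between 0.822% and 1.37% of the counts on genes.

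**Figure D1:**
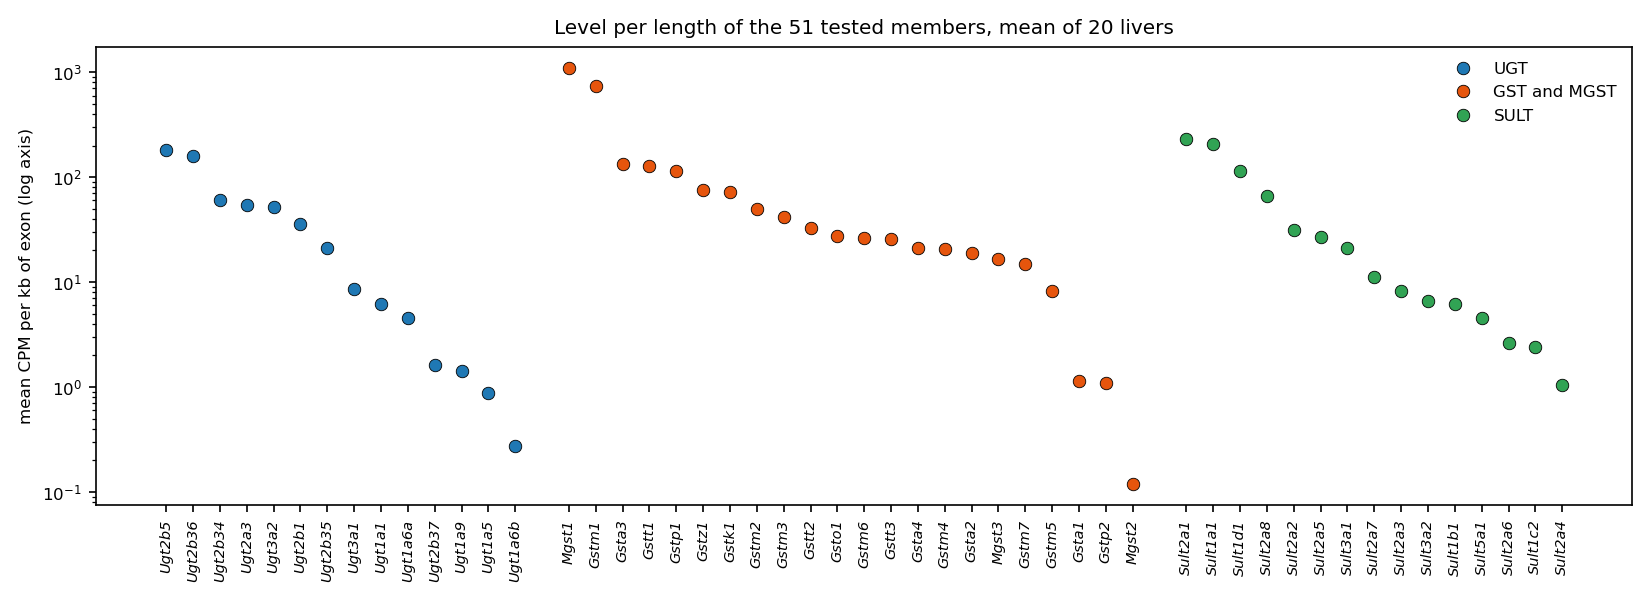
Mean level over 20 livers of the 51 tested members in CPM per kb of exon (log axis), ordered within UGT, GST with MGST and SULT. Mgst1 (1102) and Gstm1 (733) stand above all others, and the lowest is Mgst2 (0.118). Exon length covers all annotated exons of a gene, so members with long annotation rank lower. Levels of the Ugt1a genes, which share exons, are uncertain.

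The 14 members that did not pass the filter had at most 35 counts in any liver. Of them, 6 had no count in any of the 20 livers (Gstt4, Sult1c1, Sult4a1, Sult6b2, Ugt2a1 and Ugt2a2), which allows a level of up to 0.145 to 0.205 CPM in each. The other 8 were Gsto2, Sult2b1, Sult6b1, Ugt1a2, Ugt1a7c, Ugt1a8, Ugt1a10 and Ugt2b38. The 9 Ugt1a genes share between 56.6% and 77.2% of their exon bases with each other, since each has its own first exon and all use the same later exons. Ugt1a6a was at a mean of 25.4 CPM while Ugt1a8 was at 0.00899 CPM, so read pairs in the shared exons cannot have been counted on every Ugt1a gene, and levels of these genes are uncertain.

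Summed over all members of a family, UGT transcripts were lowest with αACBP and vehicle and highest with isotype and CORT. The sums of UGT were 2022, 1782, 1505, 1470 and 1987 CPM in Isotype + Vehicle and 2853, 2474, 2066, 2641 and 2727 CPM in Isotype + CORT. They were 1195, 1280, 1061, 1270 and 1020 CPM in αACBP + Vehicle and 2001, 2304, 1569, 1984 and 1229 CPM in αACBP + CORT. Each liver of Isotype + CORT was thus above each liver of Isotype + Vehicle, and each of αACBP + Vehicle below, while αACBP + CORT overlapped with each of the other groups. GST sums had means of 7612 ± 717 CPM (SD, n = 5) in Isotype + Vehicle, 8293 ± 1591 in Isotype + CORT, 5611 ± 893 in αACBP + Vehicle and 7384 ± 979 in αACBP + CORT. SULT sums had means of 1699 ± 198, 2077 ± 416 and 1408 ± 212 CPM in the first 3 of these groups, and in αACBP + CORT they ranged from 1263 to 1753 CPM. Without the 5th liver, the αACBP + Vehicle sums were 1201 ± 101 CPM (SD, n = 4) for UGT, 5952 ± 537 for GST and 1456 ± 211 for SULT. A sum follows its most abundant members and carries no test here.

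**Figure D2:**
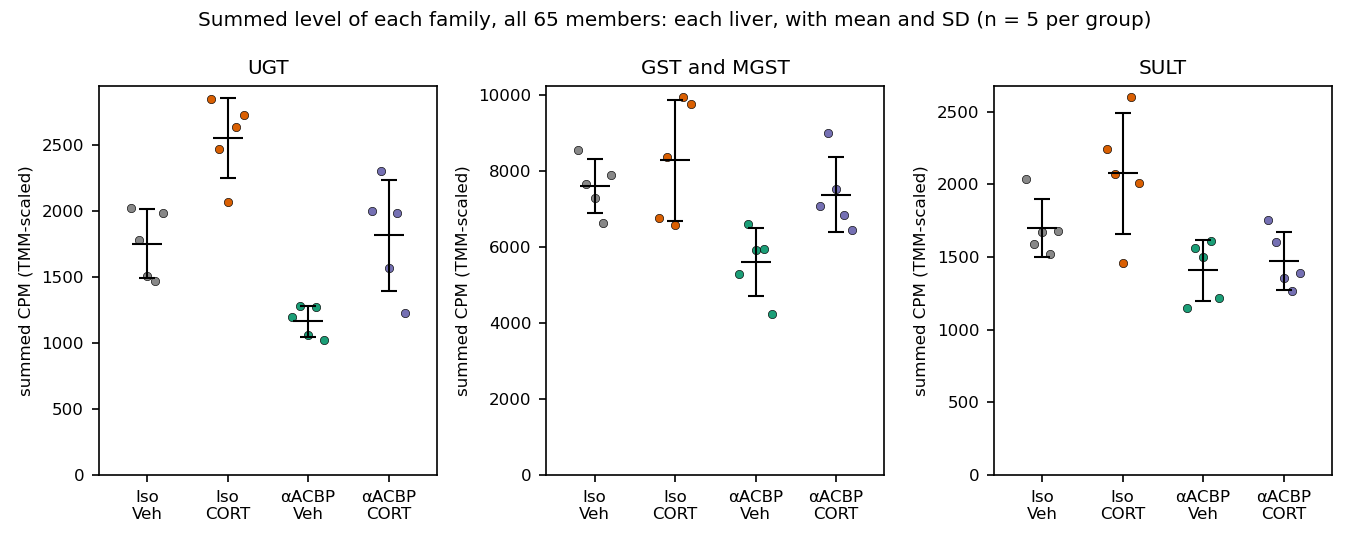
Summed TMM-scaled CPM of all members of each family in each liver (points), with the mean and SD of 5 livers (bars). UGT sums of Isotype + CORT (2066 to 2853 CPM) lie above those of Isotype + Vehicle (1470 to 2022), and those of αACBP + Vehicle (1020 to 1280) below.

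With CORT under isotype, 4 members rose (Sult1d1, Sult2a3, Ugt2b5 and Ugt2b35) and 1 fell (Gstm7). These 5 of 51 members are 9.80%, where 3.20% of all genes tested passed the same limit, an adjusted p of 0.05 or less in edgeR's quasi-likelihood test (1.34% higher and 1.86% lower). With a further limit of a log2 fold change of 1, Sult1d1 and Sult2a3 were left, against 1.94% of all genes. Of the UGT members 11 of 14 had a fold change above 0 and their median log2 fold change was 0.56. The medians were 0.01 for GST and 0.18 for SULT, and 0.00 over all genes. The groups did not overlap for 3 members (Ugt2b5 and Ugt2b34 higher, Gstm7 lower), against 2.02% of all genes as higher and 3.02% as lower.

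Ugt2b5 (ENSMUSG00000054630.7, minus strand of chromosome 5 from 87272226 to 87288211) was the most abundant UGT per length. It was at 432, 413, 315, 353 and 438 CPM in Isotype + Vehicle and at 851, 766, 593, 711 and 635 CPM in Isotype + CORT. Every CORT liver lay above every vehicle liver, a rise of 1.82-fold (log2 fold change 0.87, SE 0.19, adjusted p = 0.0108). Of its 100-base words 15.6% also occur in other transcripts, mainly those of Ugt2b37 and Ugt2b38, whose mean levels were 3.07 and 0.329 CPM.

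Ugt2b35 (ENSMUSG00000035811.10, plus strand of chromosome 5 from 87148701 to 87161742) lies in the same array. Its levels were 93.2, 87.4, 61.0, 64.9 and 76.2 CPM in Isotype + Vehicle and 173, 162, 89.2, 149 and 113 CPM in Isotype + CORT. Only the 3rd CORT liver fell within the vehicle range, and the log2 fold change was 0.84 (SE 0.22, adjusted p = 0.0272). The call was lost without any 1 of 6 livers (Isotype + Vehicle 3, 4 or 5, or Isotype + CORT 1, 2 or 4), with an adjusted p of up to 0.0831 and a log2 fold change that stayed between 0.74 and 0.96. Ugt2b36, the UGT with the highest counts, had a log2 fold change of 0.38 (SE 0.14, adjusted p = 0.148) and Ugt2b34 one of 0.56 (SE 0.19, adjusted p = 0.0984).

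Sult1d1 (ENSMUSG00000029273.10, minus strand of chromosome 5 from 87702504 to 87716933) sulfates phenols and catecholamines. It was at 239, 208, 199, 250.4 and 230 CPM in Isotype + Vehicle and at 773, 735, 274, 590 and 245 CPM in Isotype + CORT. In 3 CORT livers the level was far above the vehicle range, the 3rd liver was just above it and the 5th within it. The rise was 2.32-fold (log2 fold change 1.22, SE 0.25, adjusted p = 0.00523) and held with each liver left out.

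Sult2a3 (ENSMUSG00000074375.3, minus strand of chromosome 7 from 13801371 to 13857003) is a hydroxysteroid sulfotransferase of the Sult2a array. It was nearly silent in Isotype + Vehicle, at 3.91, 1.28, 1.88, 2.38 and 0.539 CPM. In Isotype + CORT it was at 5.61, 3.55, 28.0, 20.9 and 65.7 CPM, so that 3 livers were high and the 2nd lay within the vehicle range. The log2 fold change was 3.63 (SE 0.79, adjusted p = 0.0151), and without Isotype + Vehicle 2 it was lost, the adjusted p then being 0.0547. The 5th CORT liver had the highest Sult2a3 and the lowest Sult1d1 of its group.

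Other sulfotransferases with large estimates and wide errors did not pass. Sult3a2 had a log2 fold change of 2.82 (SE 0.79, adjusted p = 0.0546), Sult2a7 one of 2.26 (SE 0.80, adjusted p = 0.151) and Sult2a1 one of 0.92 (SE 0.45, adjusted p = 0.329). Sult1a1, the SULT with the highest counts, went from 674 ± 91.7 CPM (SD, n = 5) under vehicle to 570 ± 109 CPM under CORT (log2 fold change -0.24, SE 0.16, adjusted p = 0.546). Sult2a8, which sulfates bile acids, was at 389 ± 75.2 and 288 ± 138 CPM (adjusted p = 0.562).

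Gstm7 (ENSMUSG00000004035.12, minus strand of chromosome 3 from 107832278 to 107839187) is a mu-class transferase. It was at 102, 89.7, 75.8, 93.4 and 80.3 CPM in Isotype + Vehicle and at 25.0, 43.5, 48.3, 70.7 and 37.3 CPM in Isotype + CORT. The groups did not overlap, and the transcript fell by 0.97 on the log2 scale (SE 0.21, adjusted p = 0.00782), with each liver left out in turn too. Its neighbour Gstm6 had a log2 fold change of -0.92 (SE 0.29, adjusted p = 0.0801), whereas Gstm1 was at -0.12 (SE 0.17, adjusted p = 0.843). Among the abundant transferases, Mgst1 had a log2 fold change of 0.33 (adjusted p = 0.467) and Gstz1, the maleylacetoacetate isomerase of tyrosine breakdown, one of -0.04 (adjusted p = 0.949). Gstp1, the pi-class enzyme, ranged from 119 to 537 CPM with CORT and from 95.3 to 188 CPM with vehicle (adjusted p = 0.103), and it shares 23.8% of its 100-base words with other transcripts, mainly those of Gstp2.

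Without the 3rd liver of Isotype + CORT 8 members were called in place of 5, the added ones being Gstp1, Sult3a2 and Ugt1a9, and the share of all genes called was 3.95%. In the same livers all 10 Kupffer cell markers had a fold change below 0 with CORT (median log2 fold change -1.26), and edgeR called 7. Their sums were 153 to 434 CPM against 434 to 856 CPM, and no marker was at 0. The sums of 10 T, B and NK cell markers were 1.22 to 12.5 CPM with CORT against 18.5 to 31.7 CPM. All 9 of them that were tested had a fold change below 0, but edgeR called 0 and DESeq2 1. In bulk tissue fewer cells of a type and less RNA per cell cannot be told apart, and the part of these markers in the members' values was not tested. The hepatocyte markers summed to 91226 to 146362 CPM with CORT and 74502 to 128855 CPM with vehicle, 1 of 10 rose (Apob), and their median log2 fold change was 0.04. Periportal hepatocyte markers had a median of -0.55, with 7 of 10 below 0, and cholangiocyte markers one of -0.69, with 8 of 9 below 0. Pericentral markers had a median of 0.08, with 6 of 10 above 0. EdgeR called 0 in each of these further lists, and their part in the members' values was not tested.

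**Figure D3:**
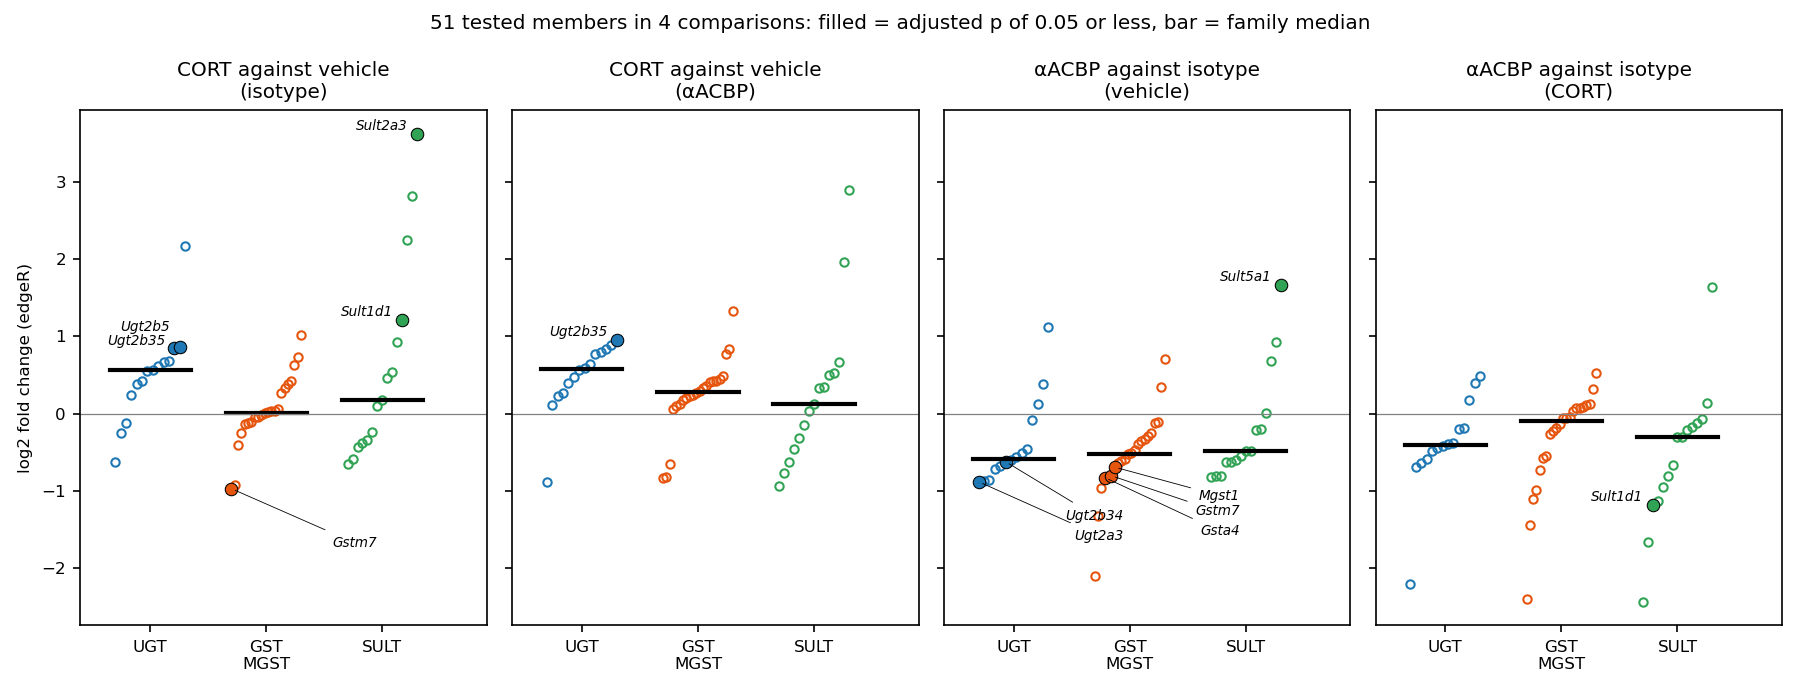
Log2 fold change of each of the 51 tested members in 4 comparisons, by family. Filled points passed an adjusted p of 0.05, and bars are family medians, which for UGT were 0.56 and 0.58 with CORT and -0.58 and -0.41 with αACBP.

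With αACBP under CORT, 1 member passed: Sult1d1 fell. This is 1.96% of 51 members, where 0.958% of all genes passed (0.635% higher and 0.324% lower), and it also passed the further limit of a log2 fold change of 1, as 0.597% of all genes did. Levels of Sult1d1 were 218, 276, 297, 214 and 152 CPM in αACBP + CORT, against 245 to 773 CPM in Isotype + CORT. The 2nd and 3rd αACBP livers lay within the range of the isotype livers, and the 5th was the lowest of both groups. The decrease was 2.26-fold (log2 fold change -1.18, SE 0.25, adjusted p = 0.0140). The call was lost without Isotype + CORT 1 or without αACBP + CORT 5, when the adjusted p reached up to 0.0615 and 0 members were called. In an edgeR fit of the compared groups alone it was lost as well.

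The medians were -0.41 for UGT, -0.09 for GST and -0.31 for SULT, against 0.01 over all genes, and 38 of 51 members had a fold change below 0. Ugt2b5 was the member whose groups did not overlap, being lower with αACBP, against 1.31% of all genes as lower and 1.91% as higher. It was at 498, 569, 370.3, 579 and 275 CPM in αACBP + CORT, all below the lowest liver of Isotype + CORT at 593 CPM, but the log2 fold change of -0.63 did not pass (SE 0.19, adjusted p = 0.115). Ugt2b36 had a log2 fold change of -0.44 (adjusted p = 0.139). Sult2a3 was at 9.81, 2.51, 0.976, 7.10 and 2.54 CPM in αACBP + CORT, all but the 1st and 4th below the lowest liver of Isotype + CORT (log2 fold change -2.43, SE 0.74, adjusted p = 0.138).

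Without Isotype + CORT 3, Gstp1 and Sult5a1 were called beside Sult1d1 (and 1.92% of all genes), and Sult5a1 also without αACBP + Vehicle 1 or αACBP + CORT 4. In this comparison all 10 Kupffer cell markers had a fold change above 0 with αACBP (median log2 fold change 1.09), and edgeR called 4. Their sums were 566 to 770.2 CPM in αACBP + CORT, and their part in the members' values was not tested. This comparison shares the Isotype + CORT livers with that of CORT under isotype, so a high level in that group enters both with opposite sign.

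With CORT under αACBP, 1 member rose, Ugt2b35. This is again 1.96% of 51, and 0.305% of all genes passed (0.212% higher and 0.0933% lower). It was at 58.4, 52.7, 51.5, 50.6 and 39.3 CPM in αACBP + Vehicle and at 81.7, 130.2, 99.3, 129 and 49.98 CPM in αACBP + CORT. The 5th CORT liver lay within the vehicle range, and the other 4 above it (log2 fold change 0.96, SE 0.22, adjusted p = 0.0470). Of the UGT members 13 of 14 and of the GST members 19 of 22 had a fold change above 0, with medians of 0.58 and 0.29, while that of SULT was 0.13 and that of all genes 0.01. The SULT median ranged from 0.01 (without αACBP + CORT 2) to 0.35 (without αACBP + Vehicle 3). Without αACBP + Vehicle 5, the liver that stands apart, the medians were 0.51 for UGT, 0.21 for GST and 0.11 for SULT.

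Hepatocyte markers had values in the same direction in this comparison. Of 10 markers 9 had a fold change above 0, with a median of 0.35, above that of GST, and 0 passed edgeR's adjusted test (4 had an unadjusted p of 0.05 or less and DESeq2 called 0). Without αACBP + Vehicle 5, 7 of 10 were above 0 and their median was 0.17. The part of these markers in the members' values was not tested.

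Values close to the limit were those of Mgst1 (log2 fold change 0.83, SE 0.20, adjusted p = 0.0618), Ugt2b34 (0.77, SE 0.19, adjusted p = 0.0635) and Ugt2b5 (0.80, SE 0.19, adjusted p = 0.0635). The groups did not overlap for Gsta3, Mgst1 and Ugt2b36, all higher with CORT, against 1.65% of all genes as higher and 1.10% as lower, and for the same 3 without αACBP + Vehicle 5, against 2.13% and 1.74%. These calls depended on single livers. Ugt2b35 was lost without any 1 of 13 livers, namely Isotype + Vehicle 2, 3 or 5, Isotype + CORT 4, αACBP + Vehicle 1 to 5 and αACBP + CORT 1 to 4, with an adjusted p of up to 0.208 and a log2 fold change between 0.84 and 1.13. Without the 5th liver of αACBP + CORT, which had the lowest Ugt2b5, Ugt2b35 and Ugt2a3 of its group, 7 members were called, of which 6 were higher (Mgst1, Ugt2a3, Ugt2b34, Ugt2b35, Ugt2b5 and Ugt3a2) and Gstt2 lower, while the share of all genes called rose from 0.305% to 1.58%. Without Isotype + CORT 5 the calls were Mgst1, Ugt2b34, Ugt2b35 and Ugt2b5 (0.643% of all genes), without αACBP + Vehicle 2 Mgst1 and Sult2a7, and without αACBP + Vehicle 4 Ugt2b34.

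With αACBP under vehicle, 5 members fell (Gsta4, Gstm7, Mgst1, Ugt2a3 and Ugt2b34) and 1 rose (Sult5a1). These 6 are 11.8% of 51 members, where 5.14% of all genes passed 2.36% as lower and 2.78% as higher. With a further limit of a log2 fold change of 1, Sult5a1 was left, against 1.30% of all genes. A fold change below 0 was found in 42 of 51 members, against 51.2% of all genes, and the medians were -0.58 for UGT, -0.52 for GST and -0.49 for SULT, against -0.02 over all genes. Without Isotype + Vehicle 1 the SULT median was -0.19. The groups did not overlap for 8 members that were lower (Gsta2, Gstm1, Gstm3, Gstm7, Sult1d1, Ugt2a3, Ugt2b35 and Ugt2b36) and 1 that was higher (Gstt2), against 3.63% and 3.50% of all genes. They were the same 9 members without the 5th αACBP liver, against 4.37% and 4.56%. The αACBP + Vehicle livers also enter CORT under αACBP, so a low level in that group enters both comparisons with opposite sign.

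Ugt2a3 (ENSMUSG00000035780.2, minus strand of chromosome 5 from 87472734 to 87485055), a glucuronosyltransferase that acts on bile acids, was at 190, 155, 128, 122 and 188 CPM in Isotype + Vehicle. In αACBP + Vehicle it was at 77.7, 99.96, 86.8, 88.5 and 71.4 CPM. All αACBP livers lay below all isotype livers, and the transcript fell by 0.88 on the log2 scale (SE 0.17, adjusted p = 0.00609). It was the member that remained called with each of the 20 livers left out. Ugt2b34 was at 302, 252, 218, 205 and 274 CPM with isotype and at 171, 162, 141, 222 and 117 CPM with αACBP. Its 4th αACBP liver was within the isotype range, and the log2 fold change of -0.62 was just under the limit (SE 0.19, adjusted p = 0.0498).

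Mgst1 (ENSMUSG00000008540.11, plus strand of chromosome 6 from 138117314 to 138133774) was at 2413, 2416, 2008, 1724 and 2709 CPM in Isotype + Vehicle. In αACBP + Vehicle it was at 1341, 1817, 1335, 1616 and 863 CPM, with the 2nd liver inside the isotype range (log2 fold change -0.69, SE 0.20, adjusted p = 0.0396). The decrease is a large one in absolute terms, since this is the member with the highest level. Gsta4, an alpha-class transferase that conjugates the lipid aldehyde 4-hydroxynonenal, was at 87.7, 66.4, 56.1, 47.5 and 71.3 CPM with isotype and at 32.3, 39.8, 52.4, 40.9 and 20.1 CPM with αACBP. It fell by 0.83 on the log2 scale, with 1 αACBP liver inside the isotype range (SE 0.22, adjusted p = 0.0302).

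Gstm7 was at 40.3, 54.6, 62.5, 58.3 and 37.0 CPM in αACBP + Vehicle, all below the lowest isotype liver at 75.8 CPM. Its log2 fold change was -0.80 (SE 0.21, adjusted p = 0.0244). The Isotype + Vehicle livers are also those of CORT under isotype, so both falls of Gstm7 rest on them and are not separate evidence. Sult5a1 (ENSMUSG00000000739.13, minus strand of chromosome 8 from 123866931 to 123885779) was at 14.3, 15.2, 23.6, 10.9 and 16.1 CPM with isotype and at 14.4, 50.8, 64.6, 66.5 and 58.3 CPM with αACBP. In 4 αACBP livers it was above every isotype liver and in the 1st it was not (log2 fold change 1.67, SE 0.45, adjusted p = 0.0365). Under CORT its estimate for αACBP was of like size, 1.64 (SE 0.45), at an adjusted p of 0.0913, the levels being 41.9, 27.2, 47.6, 7.16 and 41.3 CPM in αACBP + CORT against 6.70 to 19.4 CPM in Isotype + CORT.

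Most of these calls depended on single livers. Without the 5th liver of αACBP + Vehicle, the one that stands apart, 1 member was called (Ugt2a3) of 53 tested, and 40 of the 53 had a fold change below 0. In that fit 1.88% of all genes were called, a share near that of the members. The medians without it were -0.53 for UGT, -0.35 for GST and -0.45 for SULT. Only Ugt2a3 was called without Isotype + Vehicle 1, 2 or 5 either (1.11 to 1.63% of all genes), 2 members were called without αACBP + Vehicle 1 (Sult5a1 and Ugt2a3) and 3 without αACBP + Vehicle 3 (Gsta4, Gstm7 and Ugt2a3). Without Isotype + Vehicle 4 or Isotype + CORT 5, 10 members were called (against 7.99% and 7.13% of all genes), and 9 without αACBP + CORT 5 (against 5.27%). With no filter on low counts Sult5a1 and Ugt2b34 were lost and Gstt2 was called, so that 5 members passed. Gstm7 and Gsta4 were lost without Isotype + Vehicle 1, 2 or 5 or αACBP + Vehicle 1 or 5, with adjusted p of up to 0.0756 and 0.114. Mgst1 was lost without these livers and also without αACBP + Vehicle 3 or αACBP + CORT 4, with an adjusted p of up to 0.124. Sult5a1 was lost without Isotype + Vehicle 1, 2, 4 or 5 or αACBP + Vehicle 2, 3, 4 or 5, with an adjusted p of up to 0.112. Ugt2b34 was lost without 15 of the 20 livers, all but Isotype + Vehicle 4, Isotype + CORT 2 or 5, αACBP + Vehicle 4 and αACBP + CORT 5, with an adjusted p of up to 0.153.

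Markers of hepatocytes, the cells in which these enzymes are strongest, had lower values too in αACBP + Vehicle. Of the 10 markers 8 had a fold change below 0, 0 passed edgeR's adjusted test (5 had an unadjusted p of 0.05 or less and DESeq2 called 0), the median log2 fold change was -0.46, and their sums were 41953 to 99193 CPM against 74502 to 128855 CPM in Isotype + Vehicle. Without the 5th αACBP liver 8 of 10 were again below 0, with a median of -0.33 and sums of 75521 to 99193 CPM. All 10 stellate cell markers had a fold change below 0 (median log2 fold change -0.50), and edgeR called 3 (Lrat, Dcn and Col3a1). Without the 5th αACBP liver all 10 were again below 0, with a median of -0.30. In that fit edgeR called 0, and 4 had an unadjusted p of 0.05 or less. Periportal hepatocyte markers had a median of -0.48, with 8 of 10 below 0 and 7 at an unadjusted p of 0.05 or less. Pericentral markers had one of -0.26, with 6 of 10 below 0, and cholangiocyte markers one of -0.80, with 6 of 9 below 0. EdgeR called 0 in each of these further lists, which are not given without the 5th αACBP liver. The part of any of these marker lists in the members' values was not tested.

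**Figure D4:**
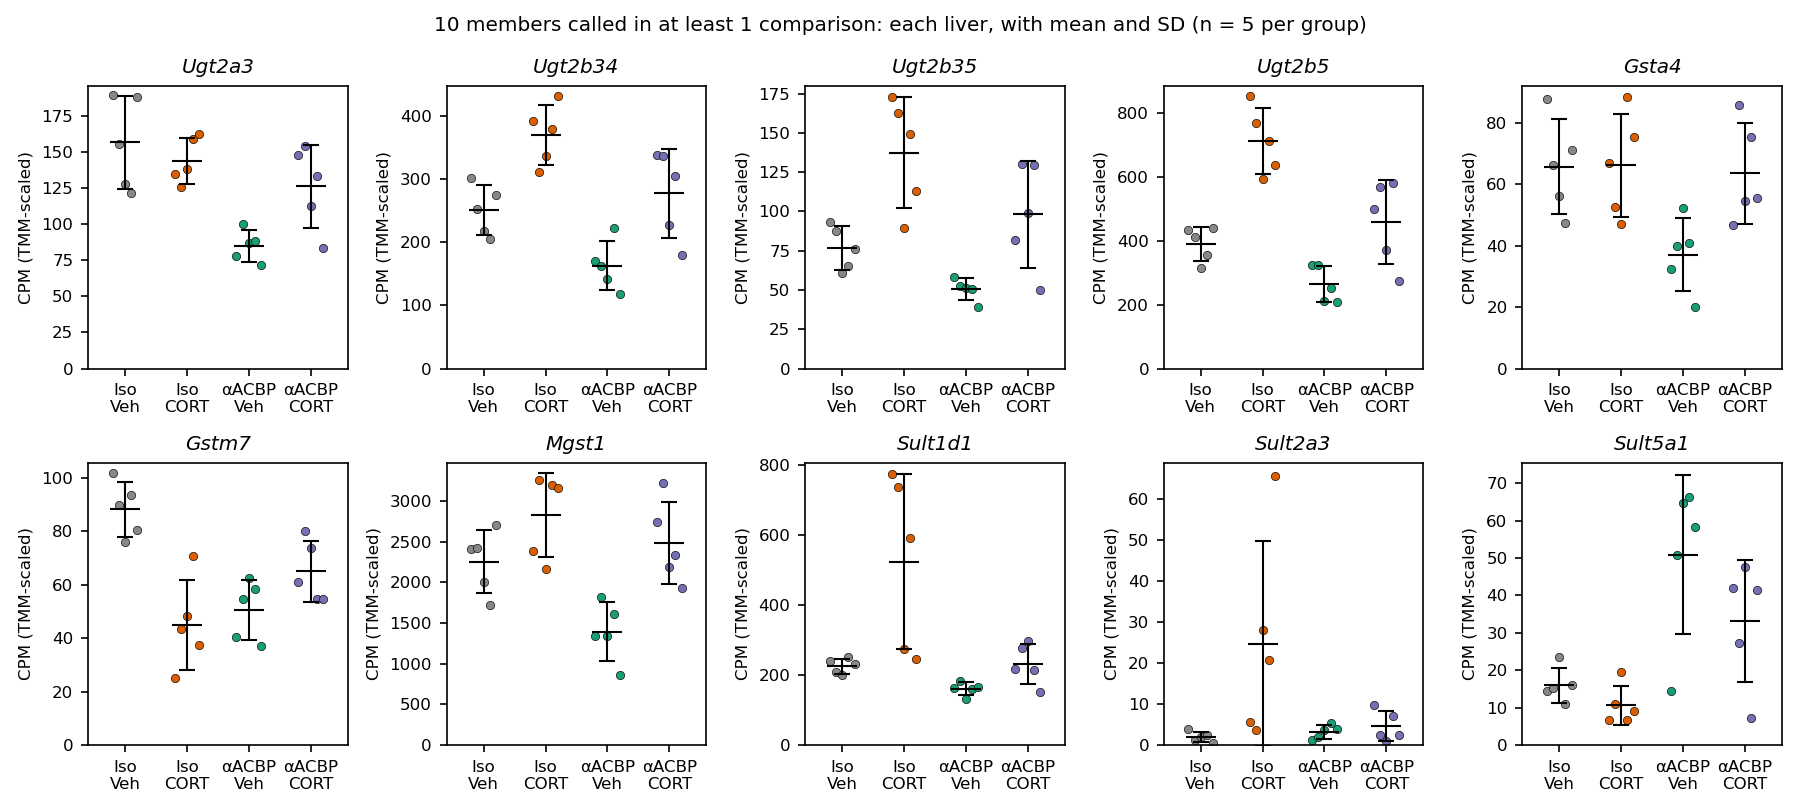
TMM-scaled CPM of the 10 members called in at least 1 comparison, in each of 20 livers (points), with mean and SD of 5 livers (bars). Sult1d1 reached 590 to 773 CPM in 3 livers of Isotype + CORT and at most 297 CPM in any liver of the other groups, and Gstm7 was highest in Isotype + Vehicle (75.8 to 102 CPM).

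The interaction, the difference between the effect of CORT under αACBP and that under isotype, was past the limit for 0 members by edgeR's quasi-likelihood test, and for 0.143% of all genes. At an unadjusted p of 0.05 or less, 6 members passed (and 10.6% of all genes), 5 with a positive and 1 with a negative value, and DESeq2's Wald test called 2 (Gstm7 and Sult2a3). Gstm7 was closest, at 1.33 on the log2 scale (SE 0.29, adjusted p = 0.0504), and it was the member called without Isotype + Vehicle 3, Isotype + CORT 3, 4 or 5, αACBP + Vehicle 3 or 4, or αACBP + CORT 5, the adjusted p ranging from 0.00778 to 0.105 over all 20 omissions. Its levels under αACBP were 50.5 ± 11.3 CPM (SD, n = 5) with vehicle and 64.9 ± 11.5 CPM with CORT, while under isotype they went from 88.2 ± 10.4 to 45.0 ± 16.8 CPM. Sult2a3 had an interaction of -3.12 (SE 1.04, adjusted p = 0.244), Sult1d1 of -0.69 (SE 0.34, adjusted p = 0.488) and Ugt2a3 of 0.69 (SE 0.24, adjusted p = 0.247). For Ugt2b5 and Ugt2b35 it was -0.07 (SE 0.27) and 0.11 (SE 0.30). In the main fit, a difference between the effects of CORT in the isotype and αACBP mice was thus not shown for any member by edgeR's test. For Gstm7 it depended on the setting, since edgeR called it with other filters, with other scalings and with replicate number as a block.

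Along the array on chromosome 5 most tested members had estimates of the same sign within a comparison. With αACBP under vehicle 8 of 9 were below 0, between -0.46 (Ugt2b36) and -0.88 (Ugt2a3), and with αACBP under CORT the same 8 were below 0, between -0.19 (Ugt2a3) and -1.18 (Sult1d1). The exception in both was Ugt2b37, whose mean of 3.07 CPM gave estimates of 1.12 (SE 0.97) and 0.49 (SE 0.98). With CORT 7 of 9 were above 0 under isotype and 8 of 9 under αACBP. Sult1b1, the neighbour of Sult1d1 that sulfates thyroid hormones, had a log2 fold change of 0.46 with CORT under isotype (adjusted p = 0.397) and of -0.81 with αACBP under CORT (SE 0.25, adjusted p = 0.120). The starts of Sult1d1 and Ugt2b5 are 429 kb apart, and that of Ugt2b35 lies 568 kb from Sult1d1. These comparisons share groups of livers and do not count as separate evidence.

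**Figure D5:**
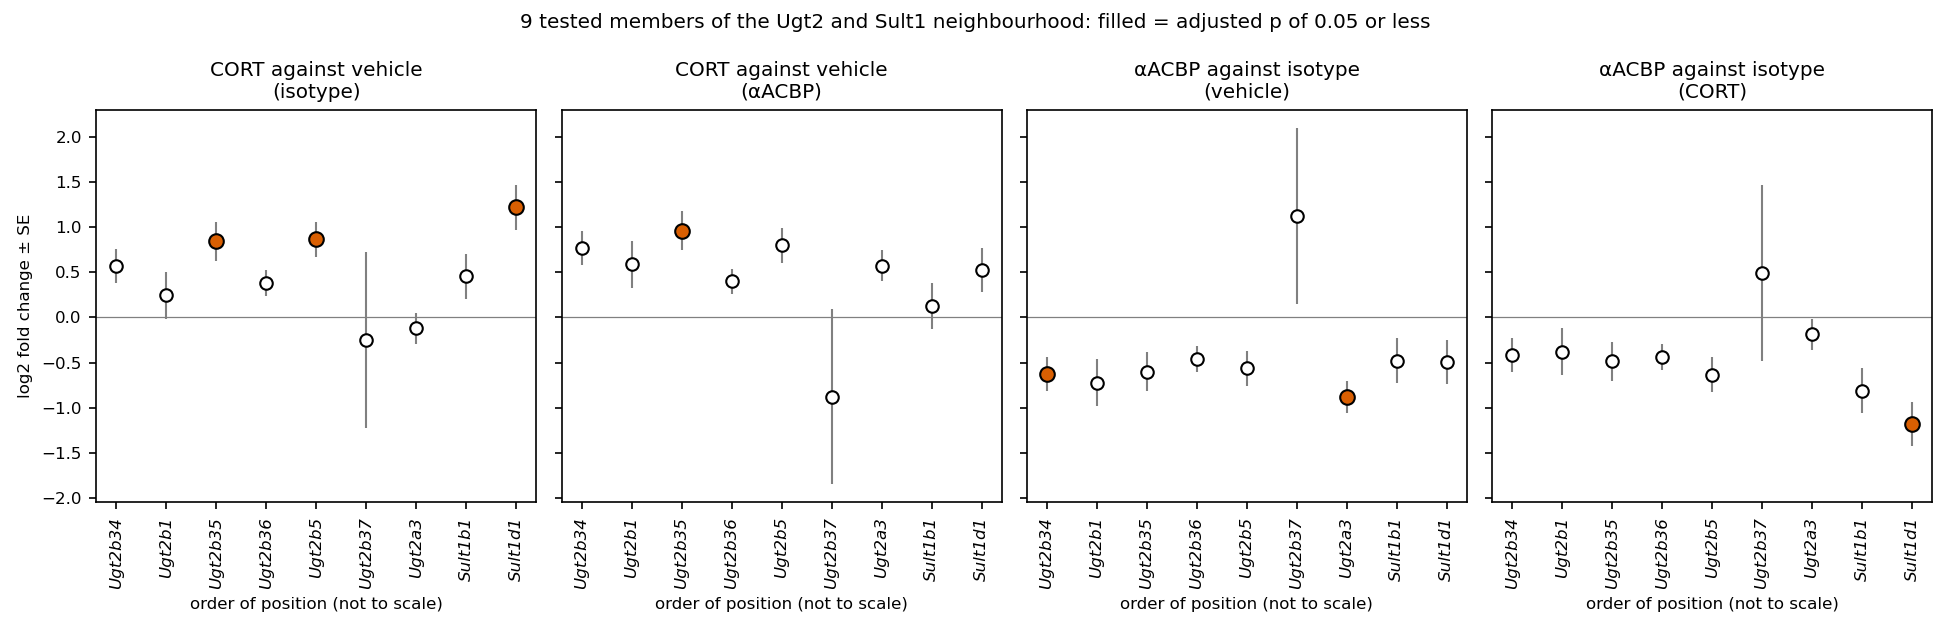
Log2 fold change ± SE of the 9 tested members of the chromosome 5 array in order of position (not to scale), in 4 comparisons, with filled points at an adjusted p of 0.05 or less. Of the 9, 8 lie below 0 with αACBP under vehicle and under CORT, and Ugt2b37 (3.07 CPM) is the exception.

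The other members of the Gstm array on chromosome 3 did not pass edgeR's test in any comparison, and whether they differed from Gstm7 was not tested. With CORT under isotype the estimates of Gstm1, Gstm2, Gstm3, Gstm4 and Gstm5 lay between -0.41 and 0.04 and none had an adjusted p under 0.445. Gstm6 was at 152, 165, 133, 104 and 156 CPM in Isotype + Vehicle and at 62.5, 98.3, 76.2, 106 and 31.9 CPM in Isotype + CORT, where the 4th CORT liver lay within the vehicle range. Its mean was 80.2 ± 31.8 CPM (SD, n = 5) in αACBP + Vehicle and 93.7 ± 17.5 CPM in αACBP + CORT, an order of groups like that of Gstm7, and its interaction was 1.15 (SE 0.40, adjusted p = 0.256). With αACBP under vehicle all 7 members of the array had estimates below 0, from -0.36 (Gstm1) to -0.97 (Gstm3, SE 0.46, adjusted p = 0.243).

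Gstt2, a theta-class transferase, went against its family. It was at 120.3, 117, 164, 179 and 116 CPM in Isotype + Vehicle and at 183, 248, 282, 186 and 243 CPM in αACBP + Vehicle. The groups did not overlap, but the log2 fold change of 0.71 missed the limit (SE 0.22, adjusted p = 0.0526), and 1 other GST, among 22, had an estimate above 0. Its neighbours Gstt1 and Gstt3 had estimates of -0.29 and -0.25.

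The Sult2a array showed wide spread between livers of 1 group. Sult2a1 ranged from 129 to 437 CPM in Isotype + Vehicle and from 152 to 708 CPM in Isotype + CORT. Sult2a7 was at 2.77, 8.08, 3.81, 2.13 and 10.1 CPM in Isotype + Vehicle and at 30.9, 43.1, 13.5, 34.6 and 6.06 CPM in Isotype + CORT. It was at 0.558, 11.3, 1.03, 0.826 and 1.496 CPM in αACBP + Vehicle and at 19.1, 51.6, 23.9, 10.8 and 8.92 CPM in αACBP + CORT. In each pair of groups 1 liver kept the ranges from being apart, the 5th CORT liver under isotype and the 2nd vehicle liver under αACBP, and the fold changes for CORT were 4.78 (adjusted p = 0.151) and 7.47 (adjusted p = 0.141). Sult2a2, Sult2a4, Sult2a5 and Sult2a6 had estimates between -0.38 and 0.18 with CORT under isotype.

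Among UGT members outside chromosome 5, Ugt3a1 and Ugt3a2 had estimates of 0.67 and 0.61 with CORT under isotype and of -0.86 and -0.87 with αACBP under vehicle, with adjusted p of 0.27, 0.248, 0.0961 and 0.0583. Ugt1a9 had an estimate of 2.17 with CORT under isotype (SE 0.72, adjusted p = 0.102), where the 5th CORT liver was at 41.5 CPM and the other 4 between 1.98 and 6.36 CPM. Ugt1a1 was at 0.42 (SE 0.51) and Ugt1a6a, which glucuronidates small planar phenols, at 0.56 (SE 0.20, adjusted p = 0.131).

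Genes that make the cofactors of these enzymes moved in part. Of all genes tested, 3.20% passed with CORT under isotype, 0.958% with αACBP under CORT, 5.14% with αACBP under vehicle and 0.143% for the interaction. Gclm, Ugdh and Ephx1 each stand in more than 1 of the pathway lists, so their calls are counted in each and are not separate evidence. Of 7 tested genes of PAPS and sulfate supply, 1 fell with CORT under isotype: Papss2, the PAPS synthase of liver, from 367 ± 50.5 to 139 ± 25.2 CPM (SD, n = 5, log2 fold change -1.40, SE 0.23, adjusted p = 0.000762). With αACBP under vehicle 1 of the 7 fell, Bpnt1, which removes the by-product of sulfation (log2 fold change -1.20, adjusted p = 0.0326). Of 7 genes of UDP-glucuronate supply, Ugp2, which makes UDP-glucose, rose with CORT under isotype (from 171 ± 30.6 to 285 ± 67.3 CPM, log2 fold change 0.74, adjusted p = 0.0307). Ugdh, which oxidizes UDP-glucose to UDP-glucuronate, fell with αACBP under CORT, from 206 ± 53.9 to 114 ± 17.6 CPM (log2 fold change -0.85, SE 0.19, adjusted p = 0.0190).

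Of 13 tested genes of glutathione synthesis and recycling, 3 rose and 1 fell with CORT under isotype. Gclm, the modifier subunit of the first enzyme of glutathione synthesis, rose from 186 ± 35.5 to 335 ± 104 CPM (log2 fold change 0.85, adjusted p = 0.0103). Oplah (0.82) and Gpx4 (0.60) rose as well, while Cbs, at the entry of homocysteine into cysteine synthesis, fell from 642 ± 48.8 to 358 ± 63.1 CPM (log2 fold change -0.84, adjusted p = 0.00266). With αACBP under CORT Gclm fell (log2 fold change -0.78, adjusted p = 0.0385) and Cbs rose (0.65, adjusted p = 0.0412), and the interaction passed for Cbs (1.13, SE 0.23, adjusted p = 0.0312). With αACBP under vehicle Oplah rose (0.79) and Cth fell (-1.12).

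Of 18 regulators of phase II genes, Nr1i3, which encodes CAR, was the one that passed with CORT under isotype and with αACBP under vehicle. It was at 683 ± 133 CPM (SD, n = 5) in Isotype + Vehicle, at 1315 ± 237 CPM in Isotype + CORT (log2 fold change 0.95, SE 0.17, adjusted p = 0.00155) and at 1058 ± 118 CPM in αACBP + Vehicle (0.63, SE 0.17, adjusted p = 0.0274). Of 14 CAR and PXR targets outside the families, Cyp2b10 rose with CORT under isotype (2.07, SE 0.55, adjusted p = 0.0467). It went from 13.2 ± 5.41 to 55.6 ± 52.8 CPM, a wide spread between CORT livers. With αACBP under vehicle Por rose (1.02) while Aldh1a1 (-1.12) and Aldh1a7 (-0.88) fell. Of 17 tested NRF2 targets outside the families, Gclm and Ephx1 rose with CORT under isotype, and Gclm, Ugdh and Me1 (-0.90) fell with αACBP under CORT. Me1 also fell with αACBP under vehicle (-0.99, SE 0.20, adjusted p = 0.00675). Pathway calls with αACBP under vehicle are not given without the 5th αACBP + Vehicle liver, which stands apart.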

How the data were processed

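RNA of whole liver was sequenced as read pairs by the authors, who used HISAT2 for alignment and HTSeq (union mode, non-unique features included) for counting. They deposited raw counts per gene and liver, which are whole numbers and not normalized. The study's methods name the assembly GRCm39 and the submitters' processing notes mm10, so gene positions given here were looked up by Ensembl identifier in GENCODE M39 (GRCm39). The strand setting is not given in the sources used here, so read pairs of a gene and of an antisense partner cannot be told apart. Lines for pairs on no gene were left out of library sizes (36.6 to 40.4% of the counts were on genes), and 0 columns were left unused.

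Counts of all 20 livers entered 1 model of the 4 groups (edgeR 4.0.16 in R 4.3.3, filterByExpr, TMM, robust quasi-likelihood test, Benjamini-Hochberg adjustment over 16071 genes, call at 0.05 or less). The SE is the log2 fold change over the square root of F. The common coefficient of variation between livers was 0.481, and the 40 pairs of same-group livers all differed by more than counting noise (chi-square per degree of freedom of at least 12.0). Genes named are members called in any test, the 3 most counted of each family, and up to 4 called genes of each pathway list. Other members named were chosen after their values were seen, and members and lists were chosen with earlier results of these data known. Alternatives included DESeq2 1.42.0, other filters, other scalings and each liver left out. On simulated counts of 15434 genes, for CORT against vehicle under isotype, edgeR recovered 34.7% of genes with a simulated log2 change of 1 and 71.4% of those with 2.

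Pairing by replicate number was checked by the correlation of deviations from the group means between same-numbered livers. It lay between -0.0999 and 0.0969 over 30 pairs, 0 of them over 0.1, and each liver came from its own mouse, so the numbers were not used as pairs.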

Additional observations from a re-analysis of the deposited data

Results flagged for a closer look

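Of 72 sets of 5 livers checked for a value far from the others, 1 held such a value, and chance alone gives about 1 in 20. Ugt2b36 was at 536 CPM in the 3rd liver of Isotype + CORT, below the other 4 of that group, which lay between 668 and 716 CPM. The same liver also had the lowest summed UGT level of its group (2066 CPM). The reason was not tested.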

How the results depend on the processing

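Called members numbered 5, 1, 1, 6 and 0 for CORT under isotype, αACBP under CORT, CORT under αACBP, αACBP under vehicle and the interaction. In that order, DESeq2's Wald test gave 11, 7, 6, 12 and 2 (5.91, 2.68, 1.43, 8.08 and 1.31% of all genes), and an unadjusted p of 0.05 gave 15, 17, 17, 20 and 6, against 15.6, 12.5, 12.7, 20.6 and 10.6% of all genes. A further limit of a log2 fold change of 1 left 2 for CORT under isotype, 0 for CORT under αACBP and 1 for αACBP under vehicle. A fit of the compared groups alone gave 0 for αACBP under CORT, 0 for CORT under αACBP and 15 for αACBP under vehicle (0.191, 0.259 and 6.90% of all genes). Where each liver had to have 10 counts or more, they were 2 for CORT under αACBP, 10 for αACBP under vehicle and 1 for the interaction (0.629, 10.3 and 0.541% of all genes). With no filter they were 2 for CORT under αACBP, 5 for αACBP under vehicle and 1 for the interaction (0.246, 2.89 and 0.217%). DESeq2's size factors gave 0 for CORT under αACBP and 1 for the interaction, and library sizes without the 20 most abundant genes gave 1 for the interaction. Each single interaction call was Gstm7, and the cause of these changes was not tested.

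With each liver left out, called members ranged from 4 to 8, 0 to 3, 0 to 7, 1 to 10 and 0 to 1 in the same order. The SULT median for αACBP under CORT ranged from -0.74 (without αACBP + CORT 1) to -0.18. The medians of UGT kept their sign in all 4 comparisons. Those of GST for CORT under isotype (-0.15 to 0.11) and αACBP under CORT (-0.16 to 0.06) and of SULT for CORT under isotype (-0.07 to 0.49) did not.

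The replicate number as a block gave 2 called members for CORT under αACBP (Sult2a7 beside Ugt2b35) and 1 for the interaction. It added Gstm6 for CORT under isotype (6 called), dropped Gsta4 and Ugt2b34 for αACBP under vehicle (4 called) and left Sult1d1 for αACBP under CORT (1 called). Values of transcripts under the floor of 3 counts, and of Ugt1a genes with shared exons, are limited by depth and by counting.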

Other observations

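Enzymes next to the conjugation families showed few calls. Of 5 tested genes listed as deconjugating enzymes, 2 rose with CORT under isotype, where 3.20% of all genes passed. They were Ephx1 (from 238 ± 46.7 to 552 ± 320 CPM, log2 fold change 1.21, SE 0.32, adjusted p = 0.0383) and Ephx2 (0.67, SE 0.17, adjusted p = 0.0209). Both are epoxide hydrolases, which open epoxides rather than remove a conjugate. Of 7 efflux transporters of conjugates, 1 passed with αACBP under vehicle, as did 5.14% of all genes. Abcc6 rose from 481 ± 75.3 to 820 ± 136 CPM (SD, n = 5, log2 fold change 0.77, adjusted p = 0.0180). Of 18 other conjugating enzymes, such as acyl and methyl transferases, edgeR called 0 in each of the 5 tests, where between 1 and 3 had an unadjusted p of 0.05 or less and DESeq2 called between 0 and 2.

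Several liver genes that differ between the sexes moved in these female mice. Of 10 tested male-predominant genes, Mup20 (from 38.5 ± 13.9 to 204 ± 96.4 CPM, SD, n = 5, log2 fold change 2.40, adjusted p = 0.00728) and Cyp2d9 (from 40.0 ± 9.62 to 182 ± 117 CPM, 2.18, adjusted p = 0.00789) rose with CORT under isotype. Selenbp2 (-2.11, adjusted p = 0.0283) and C6 (-1.30, adjusted p = 0.00319) of the same list fell. C6 rose with αACBP under CORT (1.31, adjusted p = 0.00720), and Cyp7b1 fell with αACBP under vehicle (-1.09, adjusted p = 0.0332). Of 14 female-predominant genes, Cyp4a14 passed with CORT under isotype, from 390 ± 104 to 1838 ± 1213 CPM (2.24, SE 0.47, adjusted p = 0.0136). In that comparison edgeR called 4 and 1 genes of the 2 lists, where 3.20% of all genes passed. DESeq2 called 4 in each list (5.91% of all genes). In edgeR's test 4 of 10 male-predominant and 9 of 14 female-predominant genes had an unadjusted p of 0.05 or less (15.6% of all genes). Both lists moved in both directions, with 4 of 10 male-predominant and 8 of 14 female-predominant genes above 0.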
